A study of Mus musculus with 4 samples.

Results

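The genes described are 8 genes of cholesterol synthesis and of its control, read from the footprint and translation efficiency tables of a ribosome profiling study of the mouse heart. They were found by gene name, and each name stood on a single Ensembl gene among the 55382 genes listed. They comprise 6 enzymes (Hmgcs1, Idi1, Fdft1, Sqle, Lss and Cyp51) and 2 control proteins (Insig1 and Srebf2), and none of the 8 takes up sterol, so uptake genes enter only through the wider lists below. The KO group holds 2 libraries from hearts of NAT10-CKO mice, a conditional knockout of the RNA cytidine acetyltransferase NAT10, and the WT group holds 2 libraries from hearts of NAT10-FF mice. All hearts were taken on day 15 after birth, from mice with no further allele or drug named in the labels, and lysed with cycloheximide at 100 µg/mL. The sources used here do not give the Cre line of the knockout, the exons it removes, the strain or the sex of the mice. All 4 libraries carry the same batch label. Nothing says that the libraries of a group came from separate animals, so the spread behind each p-value is that between libraries and may be technical.

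Cholesterol is built from acetyl-CoA along a single route of many enzymes. The early part runs through mevalonate to isoprenoid units, which are joined to squalene, and the late part closes squalene into the first sterol and trims that to cholesterol. Srebf2 codes for SREBP2, a membrane-bound transcription factor that is released by cleavage when sterol is scarce and then switches on nearly every enzyme of the route, itself and Insig1. Insig1 holds the uncut factor in the endoplasmic reticulum when sterol is plentiful, which closes the feedback loop. Most of these genes are therefore known to move together when sterol supply changes. The adult heart is regarded as a tissue of modest sterol synthesis that also takes up cholesterol from lipoproteins.

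Promoter sequence was looked up because SREBP2 is known to act through short elements close to the start sites of these genes, often beside boxes for NF-Y and Sp1. RefSeq windows (GRCm38.p6, the 250 bases before an annotated start) were matched for 6 of the 8 members: Hmgcs1, Idi1, Lss, Cyp51, Insig1 and Srebf2. No window was available for Fdft1 or Sqle. The Lss window precedes a start within the gene, so its last 40 bases lie inside the gene, while the other 5 windows end at the base before it. Both strands were searched for TCACNCCAC, a consensus of SREBP elements. It was present in 1.05% of 32851 such windows and, among the 6, in Hmgcs1, from 137 to 129 bases before the start. The same motif without its last base, TCACNCCA, was added after the windows had been seen. It was present in 3.67% of all windows and in Hmgcs1 and Srebf2, where it lay from 162 to 155 bases before the start. The NF-Y box CCAAT was present in all 6 windows against 33.8% of all windows, and the GC box GGGCGG in all 6 against 32.7%. The E-box CACGTG was present in Insig1 alone among the 6, against 6.02% of all windows. The windows of the 2 genes with a TCACNCCA match are shown because they hold it in the same window as NF-Y and GC boxes. They lie on the plus strand at chr13:119690101-119690350 for Hmgcs1 and at chr15:82147019-82147268 for Srebf2. Capitals mark TCACNCCA and the NF-Y boxes, which read ATTGG on this strand, while GC boxes are left unmarked.
Hmgcs1: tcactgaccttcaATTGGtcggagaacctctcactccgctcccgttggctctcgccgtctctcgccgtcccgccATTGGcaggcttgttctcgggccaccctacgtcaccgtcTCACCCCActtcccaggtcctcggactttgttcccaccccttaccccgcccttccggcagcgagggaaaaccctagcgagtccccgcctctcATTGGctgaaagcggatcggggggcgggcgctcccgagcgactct
Srebf2: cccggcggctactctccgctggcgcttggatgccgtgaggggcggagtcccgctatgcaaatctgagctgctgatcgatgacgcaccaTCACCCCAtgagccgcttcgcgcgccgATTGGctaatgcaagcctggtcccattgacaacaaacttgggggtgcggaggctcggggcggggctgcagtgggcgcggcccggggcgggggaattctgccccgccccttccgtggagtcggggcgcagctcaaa
A match is a stretch of letters and no measured binding site.

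Footprint levels are in FPKM, that is, scaled by the length of the gene and the total of the library. Translation efficiency (TE) is the footprint level divided by an RNA level, and dividing the footprint level by TE gives that RNA level back, called the implied RNA level here. The targeted gene Nat10 had 40.01 and 52.1 FPKM of footprints in the KO libraries, against 77.3 and 73.9 FPKM in the WT libraries, which missed the threshold of 0.05 (limma adjusted p = 0.295). Across all 15031 tested genes the median log2 footprint change, KO minus WT, was 0.36, and across 12529 genes it was 0.22 for the implied RNA level and 0.15 for TE. Read totals are not known. Among genes below 1 FPKM in both libraries, the most common ratio of a KO to a WT library was 1.37 to 1.80, and whether depth or level sets it was not tested.

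The 8 genes covered a wide range of footprint levels. Hmgcs1, which makes HMG-CoA from acetyl-CoA units, stood far above the others, with a mean of 429 FPKM over the 4 libraries, and 94.7% of all tested genes lay below it. Cyp51, the lanosterol demethylase, followed at 59.9 FPKM and Srebf2 at 30.3 FPKM. Fdft1 (16.0 FPKM), Sqle (12.9 FPKM) and Insig1 (11.5 FPKM) came next, and Lss (3.11 FPKM) and Idi1 (0.736 FPKM) were lowest. Hmgcs1, Cyp51 and the next gene down did not overlap in any library, nor did Insig1 and Lss. Srebf2 and Fdft1, Fdft1 and Sqle, Sqle and Insig1, and Lss and Idi1 overlapped across libraries as neighbours in this order, although Lss was above Idi1 within each of the 4 libraries. The gap from Hmgcs1 to Cyp51, 7.17-fold, was the widest between neighbours.

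**Figure D1:**
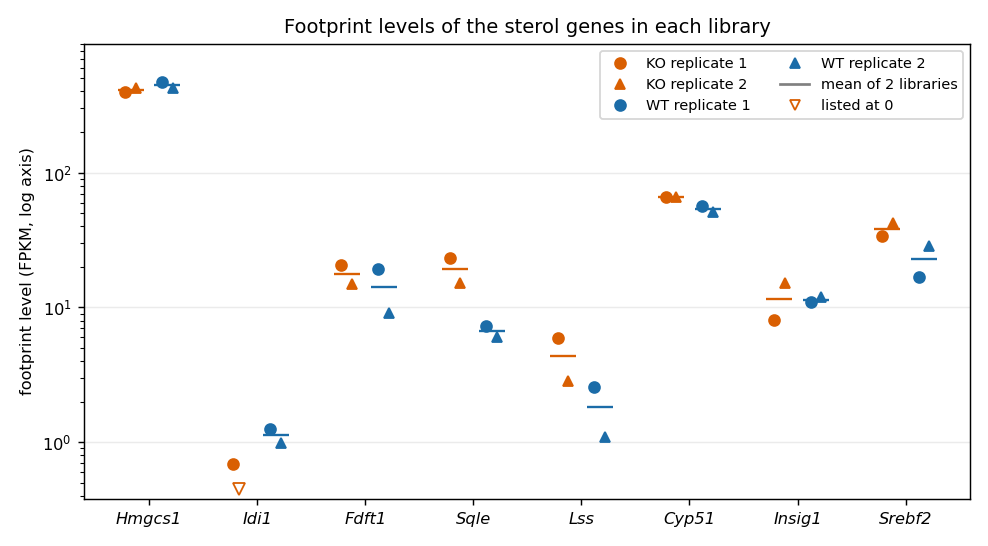
Footprint level in FPKM on a log axis for each of the 8 genes, with KO libraries on the left and WT libraries on the right of each gene, circles for replicate 1, triangles for replicate 2 and a line at the mean of 2 libraries. Hmgcs1 lies between 398 and 467 FPKM, Sqle is separated between the groups, and the open symbol marks Idi1 listed at 0 in KO replicate 2.

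Hmgcs1 catalyses the step before mevalonate is made, and it passed the test in no measure. Hmgcs1 (ENSMUSG00000093930) lies on chromosome 13 from 119690351 to 119708260 (RefSeq, GRCm38.p6, the assembly used for every position given). Its footprint level was 398 and 425 FPKM in the KO libraries, against 467 and 426 FPKM in the WT libraries. The groups all but touched, with KO replicate 2 just below WT replicate 2. The log2 change was -0.12 (SE 0.21, 95% interval -0.63 to 0.40, limma adjusted p = 0.798). The implied RNA of Hmgcs1 stood at 19.9 and 18.6 FPKM in KO and 18.7 and 20.6 FPKM in WT, with a log2 change of -0.03 (95% interval -0.52 to 0.46, adjusted p = 0.938). Its TE was 19.97 and 22.9 in KO and 25.005 and 20.7 in WT (log2 change -0.09, adjusted p = 0.991). The TE of Hmgcs1 was among the high ones, since 97.2% of tested genes had a lower mean TE.

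Idi1 makes the reactive isoprenoid isomer that starts chain growth. Idi1 (ENSMUSG00000058258) lies on chromosome 13 from 8885606 to 8892396. Its footprint level was 0.687 FPKM in KO replicate 1 and listed at 0 in KO replicate 2, against 1.26 and 0.993 FPKM in the WT libraries. The KO libraries lay below the WT libraries, but Idi1 reached 1 FPKM in a single library and so was not tested. Its implied RNA level, where it could be read, was 3.66 FPKM in KO replicate 1, against 1.3505 and 1.3497 FPKM in the WT libraries. KO replicate 2 gave no TE, so there is no RNA value for it. No direction is drawn from values this low.

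Fdft1 codes for squalene synthase, which joins a pair of farnesyl units and commits them to sterol. Fdft1 (ENSMUSG00000021273) lies on chromosome 14 from 63145150 to 63181687. It was the only member past the threshold in the 3 measures: its implied RNA level fell in KO. That level was 4.69 and 5.09 FPKM in the KO libraries, against 12.6 and 14.0 FPKM in the WT libraries. The groups were far apart compared with the gap between libraries of a group. In bulk heart tissue, fewer cells of a type and less RNA per cell cannot be told apart. The means were 4.89 ± 0.29 FPKM in KO and 13.3 ± 1.0 FPKM in WT (SD, n = 2 each), a 2.72-fold lower level in KO (log2 change -1.45, SE 0.23, limma adjusted p = 0.030). The call was lost without a mean-variance trend in the model (adjusted p = 0.054) and passed in each fit that left out a library (adjusted p 0.0069 to 0.037). Such fits leave a group with 1 library, which is assumed to vary like the other group.

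The footprints of Fdft1 did not show this difference. They were 20.6 and 14.8 FPKM in KO, against 19.4 and 9.12 FPKM in WT. The groups overlapped, with a log2 change of 0.36 (limma, 95% interval -0.92 to 1.65, adjusted p = 0.747), about the median of all genes, and without WT replicate 2 the change was -0.14. The TE of Fdft1 was 4.40 and 2.91 in KO, against 1.54 and 0.650 in WT. Both KO libraries lay above both WT libraries, but the log2 change of 1.84 (SE 0.64) did not pass (adjusted p = 0.806). TE is the quotient of the other measures, so these values are not separate evidence.

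**Figure D2:**
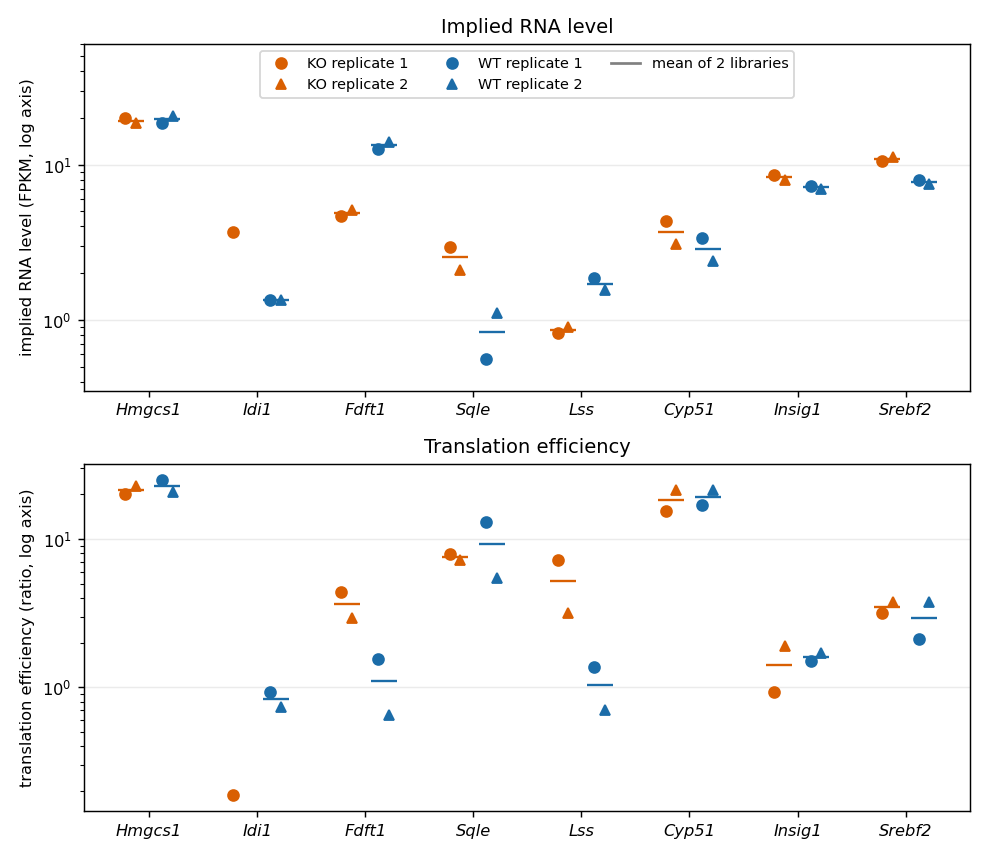
Implied RNA level in FPKM (upper panel) and translation efficiency (lower panel), both on log axes, for each gene, with KO libraries on the left and WT libraries on the right of each gene and lines at the mean of 2 libraries. Fdft1 and Lss have lower RNA and higher TE in both KO libraries than in both WT libraries, while Idi1 has no value in KO replicate 2.

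Sqle codes for squalene epoxidase, a rate-limiting oxygen-dependent step. Sqle (ENSMUSG00000022351) lies on chromosome 15 from 59315092 to 59331193. It had the highest change of the 20 tested enzymes in footprints and in RNA, without passing over all genes. Its footprint level was 23.4 and 15.1 FPKM in the KO libraries, against 7.24 and 6.05 FPKM in the WT libraries. The groups did not overlap, and the lower KO library was still above the higher WT library by more than the gap between the WT libraries. In FPKM the gap between the KO libraries was slightly wider than this separation of the groups. The log2 change was 1.38 (SE 0.48, 95% interval 0.20 to 2.55, limma adjusted p = 0.247). Among 3034 named genes with a mean of 10 to 30 FPKM, the median change was 0.47 and the central 90% ran from -0.71 to 1.65, so the value of Sqle lies in the upper part of what genes of its level showed.

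The implied RNA level of Sqle was 2.97 and 2.09 FPKM in KO, against 0.558 and 1.10 FPKM in WT. The log2 change of 1.67 (SE 0.45) just missed the threshold (limma adjusted p = 0.076). This RNA level was low, since 13.4% of tested genes had a lower mean RNA level, against 10.2% for Lss. With 1 library left out, and its group's lone library assumed to vary like the other group, the change was 2.16 without WT replicate 2 (adjusted p = 0.0066) and 1.92 without KO replicate 2 (adjusted p = 0.036). It was 1.41 without KO replicate 1 (adjusted p = 0.173) and 1.17 without WT replicate 1 (adjusted p = 0.288). TE of Sqle was 7.86 and 7.24 in KO, against 13.0 and 5.48 in WT. These groups overlapped (log2 change -0.16, adjusted p = 0.983).

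Lss codes for lanosterol synthase, the cyclase that closes the epoxide of squalene into the first sterol ring system. Lss (ENSMUSG00000033105) lies on chromosome 10 from 76531565 to 76557139. Its footprints and its RNA lay in opposite directions. The footprint level was 5.93 and 2.86 FPKM in KO, against 2.57 and 1.09 FPKM in WT, with KO above WT (log2 change 0.92, SE 0.61, adjusted p = 0.462). The implied RNA level was 0.820 and 0.897 FPKM in KO, against 1.86 and 1.55 FPKM in WT, with KO below WT (log2 change -0.98, SE 0.36, adjusted p = 0.135). TE was 7.23 and 3.19 in KO, against 1.38 and 0.704 in WT, and its log2 change of 2.28 (SE 0.65, adjusted p = 0.777) was the highest of the 20 tested enzymes. None of these differences passed. The footprint change of Lss was 0.28 with a pseudocount of 10 and 0.55 with quantile normalization, and it was 0.50 without KO replicate 1 and 0.54 without WT replicate 2. Such a pattern, footprints above and RNA below in KO with no overlap in either, was present in 336 of 12529 tested genes (2.68%). These include Acat2 among the other enzymes of the route, and Mbtps1, Abca1 and Pggt1b of the wider lists below. The footprint level of Lss, at 1.09 to 5.93 FPKM, was near the minimum of 1 FPKM for testing.

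Cyp51 removes a methyl group from lanosterol, in the late part of the route. Cyp51 (ENSMUSG00000001467) lies on chromosome 5 from 4080674 to 4104697. Its footprint level was 66.2 and 65.6 FPKM in KO, against 56.9 and 50.8 FPKM in WT. The KO libraries were nearly equal and lay above both WT libraries, with a log2 change of 0.29 (SE 0.28, adjusted p = 0.615). That is below the median of all genes, and median-ratio scaling turned it to -0.08. The implied RNA of Cyp51 stood at 4.31 and 3.07 FPKM in KO and 3.35 and 2.38 FPKM in WT (log2 change 0.37, adjusted p = 0.488). TE was 15.4 and 21.4 in KO and 16.98 and 21.3 in WT, so that replicates of a group differed more than the groups (log2 change -0.07, adjusted p = 0.995). Like Hmgcs1, Cyp51 stood high in TE, with 95.8% of tested genes below it.

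Neither control gene passed the test in any measure. Srebf2 (ENSMUSG00000022463) lies on chromosome 15 from 82147269 to 82205379. Insig1 (ENSMUSG00000045294) lies on chromosome 5 from 28071412 to 28078662. Srebf2, the gene of SREBP2, had 33.8 and 42.0 FPKM of footprints in KO, against 16.9 and 28.5 FPKM in WT. Both KO libraries lay above both WT libraries, while the WT libraries lay further from each other than WT replicate 2 lay from KO replicate 1 (log2 change 0.75, SE 0.41, adjusted p = 0.386). Its implied RNA level was closer between replicates, at 10.6 and 11.2 FPKM in KO, against 7.999 and 7.52 FPKM in WT. The log2 change of 0.49 (SE 0.22, 95% interval -0.03 to 1.01) did not pass either (adjusted p = 0.196). TE of Srebf2 was 3.17 and 3.77 in KO and 2.11 and 3.79 in WT (adjusted p = 0.958).

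Insig1 had 8.01 and 15.2 FPKM of footprints in KO, against 10.96 and 11.9 FPKM in WT. The KO libraries enclosed the WT libraries (log2 change -0.04, 95% interval -1.29 to 1.20, adjusted p = 0.969). Without KO replicate 1 the change was 0.38 and without WT replicate 2 it was 0.01. The implied RNA of Insig1 stood at 8.60 and 7.96 FPKM in KO, against 7.31 and 6.998 FPKM in WT, with KO just above WT (log2 change 0.21, adjusted p = 0.567). TE was 0.932 and 1.91 in KO and 1.499 and 1.71 in WT (log2 change -0.26, adjusted p = 0.971). In contrast to Hmgcs1 and Cyp51, only 15.6% of tested genes had a lower TE than Insig1.

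Seen together, 0 of the 7 tested members passed limma's test in footprints, where 0.379% of all tested genes were called (0.253% higher and 0.126% lower in KO). In the implied RNA level 1 of 7 passed, Fdft1, where 5.73% of all tested genes were called (4.2% higher and 1.53% lower in KO). In TE 0 of 7 passed, and 0% of tested genes did. At an unadjusted p under 0.05 there were 1 in footprints (Sqle), 3 in RNA (Fdft1, Sqle and Lss) and 2 in TE (Fdft1 and Lss), beside 17.3%, 28.3% and 6.06% of all tested genes. KO libraries lay wholly above WT libraries for 4 of 7 members in footprints (39.5% of all tested genes) and wholly below for 1 (12.1%). In RNA they lay above for 3 (44.2%) and below for 2 (18.6%), and in TE above for 2 (24%) and below for 0 (12%). The median log2 change of the members was 0.36 in footprints and 0.21 in RNA, each close to that of all genes, and it was -0.07 in TE. The lowest and the highest RNA change of the set, -1.45 and 1.67, belonged to successive enzymes, Fdft1 and Sqle, and the second of these did not pass.

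**Figure D3:**
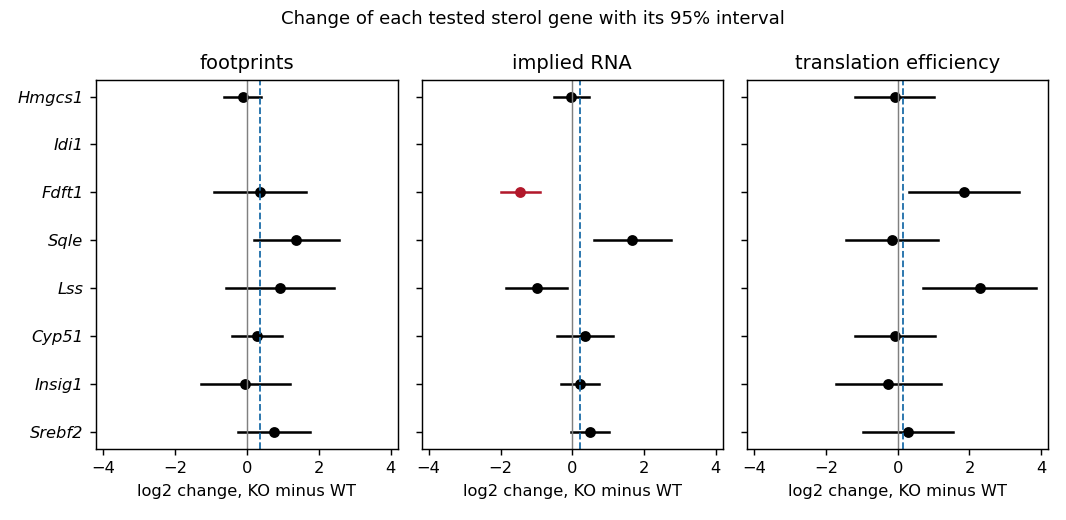
Log2 change, KO minus WT, of the 7 tested genes in footprints, implied RNA level and translation efficiency, with points at the estimate and bars over the 95% interval. The solid line marks no change and the dashed line the median of all tested genes. The Fdft1 RNA change of -1.45 is in red as the value past the threshold, and Idi1 has no estimate.

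The rest of the route was read from a list of 21 enzymes that includes the 6 members. Of the other 15 enzymes, all were tested, and 0 passed limma's test in footprints or in RNA. Footprints of 9 of the 15 were higher in both KO libraries than in both WT libraries (39.5% of all tested genes) and those of 1 were lower (12.1%). The median log2 change of the 15 was 0.46 in footprints and 0.33 in RNA, against 0.36 and 0.22 for all genes. The footprint changes next to that of Sqle were those of Mvd (1.01), Msmo1 (0.98) and Lbr (0.93), and the lowest were those of Hsd17b7 (-0.76), Fdps (-0.38) and Pmvk (-0.12). In RNA, Fdft1 was lowest of the 20 tested enzymes and Hsd17b7, a reductase of the late part, next at -1.01 (adjusted p = 0.106).

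**Figure D4:**
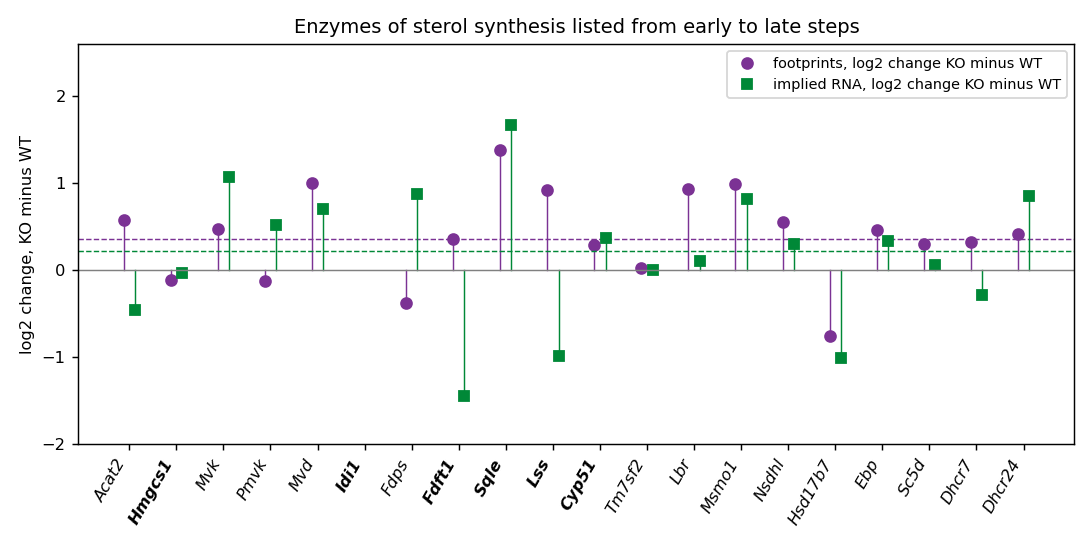
Log2 change, KO minus WT, of footprints (circles) and implied RNA level (squares) for the enzymes of sterol synthesis shown, listed from early to late steps, with the members described here in bold and dashed lines at the medians of all tested genes, 0.36 for footprints and 0.22 for RNA. Fdft1 and Lss have squares below 0 and circles above 0, as do Acat2, Dhcr7 and, close to 0, Tm7sf2. Sqle is highest in both, and Idi1 was not tested.

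Around the route, 11 other genes that control SREBP, 16 tested genes of sterol uptake, transport and efflux, 11 of the isoprenoid branch and 11 of fatty acid synthesis had 0 genes past the threshold in footprints. Over these lists and the 15 enzymes, 0 of 64 tested genes passed limma's test in footprints (0.379% of all tested genes) and 17 had an unadjusted p under 0.05 (17.3%). These 17 include Lrp8, which met the minimum for testing through the KO libraries alone. In the implied RNA level 1 of 63 passed (5.73% of all tested genes), Soat1, which esterifies cholesterol for storage. Its RNA rose to 7.12 and 6.50 FPKM in KO, against 1.99 and 2.07 FPKM in WT (log2 change 1.75, adjusted p = 0.027). This call was lost without the mean-variance trend (limma adjusted p = 0.0503). In TE 0 of 63 passed, and 0% of all tested genes. A limma unadjusted p under 0.05 was reached by 15 of 63 in RNA (28.3% of all tested genes) and 3 of 63 in TE (6.06%). Footprints of Soat1 were 193 and 178 FPKM in KO, against 102 and 83.3 FPKM in WT (adjusted p = 0.179).

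The uptake list had the highest median footprint change of these lists, at 0.92 against 0.36 for all genes, and 13 of its 16 tested genes lay above the median of all genes. Its median implied RNA change was 0.35 against 0.22 for all genes, with 8 of 15 above that median. KO libraries lay wholly above WT for 7 of the 15 (44.2% of all tested genes) and wholly below for 5 (18.6%). Lrp8, a lipoprotein receptor, had 6.36 and 14.9 FPKM in KO and was listed at 0 in both WT libraries. It met the minimum for testing through the KO libraries alone, which fixed its direction, so no test of it is given. The median of 0.92 and the 13 of 16 include it. Scarb1, the HDL receptor, had 84.1 and 108 FPKM in KO, against 29.8 and 26.0 FPKM in WT (log2 change 1.74, adjusted p = 0.123). Scarb1 passed when small RNA genes, pseudogenes and unnamed models were left out of the fit (adjusted p = 0.041). Nr1h3 (1.52) followed Lrp8 and Scarb1 in footprint change, and Npc1 (-0.54), Stard3 (-0.22) and Vldlr (-0.13) were lowest.

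In the other lists the footprint changes at the ends were as follows, none past the threshold. Among SREBP control genes Erlin1 (0.87), Rnf145 (0.82) and Mbtps1 (0.81) were highest, and Rnf139 (-0.54) and Insig2 (-0.15) lowest. In the isoprenoid branch Ggps1 (1.28), Fntb (0.86) and Nus1 (0.47) were highest, and Coq2 (-0.66), Pdss2 (-0.51) and Rabggta (-0.29) lowest. In fatty acid synthesis, which the sister factor SREBP1 is known to drive, Scd2 (1.28), Fads1 (1.22) and Scd1 (1.22) were highest, and Acss2 (-0.60), Me1 (-0.56) and Acaca (0.29) lowest.

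The labels name cardiomyocytes as the cell type, while the protocol describes whole heart tissue. Markers of other cell types were present, and their counts stand beside 39.5% of all tested genes wholly above and 12.1% wholly below WT in footprints. In RNA the shares of all tested genes were 44.2% wholly above, 18.6% wholly below, 4.2% called higher and 1.53% called lower. Footprints of 9 fibroblast markers summed to 53145 and 68356 FPKM in KO, against 24876 and 19983 FPKM in WT, with 9 of 9 higher and 0 lower in both KO libraries. Their implied RNA summed to 2635 and 2011 FPKM in KO, against 1057 and 1443 FPKM in WT, where 2 passed as higher and 0 as lower. In RNA 5 of the 9 lay wholly above WT and 1 wholly below. Footprints of 8 cardiomyocyte markers summed to 183959 and 232625 FPKM in KO, against 246985 and 294095 FPKM in WT, with 1 of 8 higher and 6 lower in both KO libraries. Their implied RNA summed to 33778 and 23962 FPKM in KO, against 30134 and 33258 FPKM in WT, where 1 passed as higher and 0 as lower. In RNA 6 of the 8 lay wholly below WT and 1 wholly above, with a median log2 change of -0.59. Fibroblast markers thus stood higher, and most cardiomyocyte markers lower, in both KO libraries' footprints. Most cardiomyocyte markers were lower in both KO libraries in RNA as well. Footprints of 8 macrophage markers summed to 873 and 1974 FPKM in KO, against 541 and 872 FPKM in WT, with 3 of 8 higher and 0 lower in both KO libraries. Their implied RNA summed to 248 and 196 FPKM in KO, against 108 and 103 FPKM in WT, where 2 passed as higher and 0 as lower. In RNA 6 of the 8 lay wholly above WT and 1 wholly below. Footprints of 7 endothelial markers summed to 2047 and 3004 FPKM in KO, against 1784 and 1561 FPKM in WT, with 4 of 7 higher and 0 lower in both KO libraries. Their implied RNA summed to 284 and 372 FPKM in KO, against 333 and 347 FPKM in WT, where 0 passed as higher and 0 as lower. In RNA 1 of the 7 lay wholly above WT and 1 wholly below. No marker of the lists named so far was at 0 in all libraries. Footprints of 7 smooth muscle and pericyte markers summed to 4008 and 3835 FPKM in KO, against 5061.5 and 5140 FPKM in WT. Of these, 4 were higher and 1 lower in both KO libraries. Sums of 7 epicardial and glial markers were 99.4 and 75.1 FPKM in KO, against 34.5 and 27.5 FPKM in WT (6 higher, 0 lower). Of 6 erythroid markers 0 were higher and 0 lower. Of 5 fat markers 1 was higher and 0 lower, and Lep was at 0 in all libraries. The part of these shifts in the values of Fdft1, Sqle, Lss or Soat1 was not tested.

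The mean footprint profile of the 8 members over the 4 libraries was shallow, from -0.28 in WT replicate 2 to 0.27 in KO replicate 1 as log2 deviation from each gene's own mean. This mean includes Idi1, which was too low to be tested and was listed at 0 in KO replicate 2, where it lowers the mean. A profile without Idi1 was not made, so the shape and the nearest genes rest partly on it. By root mean square distance from that profile the nearest of 12942 named tested genes were Nicn1, Rasgrp3, C1d, mt-Nd6 and Pofut1, at 0.014 to 0.024. In all, 215 of these genes (1.66%) lay within 0.1. Cyp51 lay at 0.068, the other members at 0.26 to 0.57, and Cyp51 was thus nearest to the mean.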

How the data were processed

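Footprint levels were deposited as FPKM and translation efficiency as a ratio, both made by the authors, with 1 value per gene and library. The submitters' processing notes name STAR 2.7.4a, Bowtie 1.3.1, Cufflinks 2.2.1 and HTSeq 0.13.5 beside FastQC 0.11.9 and cutadapt 3.7, with the build GRCm38 (mm10). The sources used here do not give settings, strand, the regions counted or how the RNA libraries behind the ratio were made. All 59296 quotients of FPKM over TE had at most 6 significant digits (relative tolerance 1e-10), so the quotient was used as the RNA level. A TE of 0 was taken as missing.

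Genes with at least 1 FPKM in at least 2 libraries (15031) were compared as log2(FPKM + 1), which understates changes of low genes, and 12529 genes with a TE in all 4 libraries as log2 RNA and log2 TE. The fit was limma 3.58.1 in R 4.3.3 (lmFit, eBayes with trend), two-sided, with Benjamini-Hochberg adjustment over all genes and a threshold of 0.05. The scripts were tested on simulated data. With 2 libraries against 2 an exact permutation test cannot go below p = 0.333, so none was used. FPKM keeps no read total, so no count model was used.

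Members and lists were chosen with earlier results of these data known. Named beside the members were list genes past the threshold, the 3 highest and 3 lowest footprint changes of each list, and the 5 genes nearest in profile. Some genes are not reported here. Alternatives changed the pseudocount, filter, scaling, genes fitted, variance model, replicate block and libraries.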

Additional observations from a re-analysis of the deposited data

How the results depend on the processing

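No member passed in footprints or TE under any alternative tried, and Fdft1 passed in RNA under each except the model without a mean-variance trend, where 0 members and 0 list genes passed. Sqle joined it in RNA with the replicate number as a block (adjusted p = 0.027, giving 2 members) and in 2 of the fits that left out a library, so members called in RNA numbered 1 to 2 and list genes 1 to 13 over those fits. Shared numbers are not shown to pair the libraries: deviations of same-numbered libraries correlated at -0.06 in footprints, -0.22 in RNA and -0.02 in TE. All genes called in footprints, 57, became 34 with a pseudocount of 0.1, 8 without a filter, 224 with at least 5 FPKM, 222 without small RNA genes, 36 without the trend and 0 with any library left out. In RNA, 718 became 398 with at least 5 FPKM, 67 without the trend and 704 to 3742 with a library left out, and in TE 0 became up to 33. With the block, all genes called numbered 143, 1429 and 178 in that order, against 57, 718 and 0 without it. With the numbers crossed, an alternative chosen after seeing the data, 2 of 7 members and 12 of 63 list genes passed in RNA. In that fit 3241 of all 12529 tested genes passed. The list gene called in footprints was Scarb1, with at least 5 FPKM in all libraries and without small RNA genes, pseudogenes and unnamed models. Lrp8 was also below the threshold in the latter fit. It entered that fit through the KO libraries alone, so its call is no result.

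The median footprint change of the members was 0.25 with a pseudocount of 10, 0.017 with median-ratio scaling, -0.063 with quantile normalization and 0.21 to 0.59 with a library left out. In RNA it was -0.0078 with median-ratio scaling, 0.0090 with quantile normalization and 0.12 to 0.27 with a library left out, and in TE -0.22 and -0.34, with -0.10 to 0.25 when a library was left out. The median of all genes, 0.36 in footprints, was 0.03 with median-ratio scaling. Of 242 values of single members under alternatives, 16 changed sign and 4 crossed the threshold. The sign changes in footprints were Cyp51 with median-ratio scaling (-0.078) and quantile normalization (-0.063), and Fdft1 with quantile normalization (-0.083). Insig1 in RNA was -0.0078 with median-ratio scaling. With a library left out the ranges were -0.14 to 0.87 for Fdft1 and -0.47 to 0.38 for Insig1 in footprints, and -0.10 to 0.042 for Hmgcs1 in RNA. In TE they were -0.31 to 0.17 for Cyp51, -0.78 to 0.25 for Insig1, -0.23 to 0.050 for Hmgcs1, -0.78 to 0.46 for Sqle and -0.13 to 0.71 for Srebf2. The causes were not tested. Values of Lss and Idi1, and the RNA values of Sqle, are limited by their low level.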
